A study of Mus musculus with 6 samples.

Results

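The blood-brain barrier genes described here are 34 markers of the brain vasculature, read in the cortex of 5XFAD mice with and without a graft of human interneurons. They were taken by gene symbol, each of which matched 1 row among 54532 gene identifiers, and comprise 23 endothelial, 8 pericyte and 3 smooth muscle genes. In all, 33 passed the filter on low counts, which kept 17042 genes, and Tagln did not. The cell-treated group is 3 cortex libraries of 5XFAD mice that had received human GABAergic interneurons made from induced pluripotent stem cells, and the control group is 3 cortex libraries of 5XFAD mice without cell therapy. 5XFAD mice carry human transgenes with familial Alzheimer mutations under Thy1 promoter elements, which drive expression in neurons, so every library of both groups comes from amyloid-forming brain and there is no wild-type group. Age, sex and a sham operation are not given in the sources used here. The count table names the control columns for the disease rather than as controls, and they were taken as the controls because the other columns carry the word treated. The series' design text, against the sample labels, gives the word control to the mice with cell therapy; the sample labels were followed. The direction of every difference rests on these choices.

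Brain capillaries are lined by endothelial cells joined by tight junctions, which block passage between cells, while transporters in their membranes carry glucose, lipids and hormones across and pumps return drugs to the blood. Pericytes sit on the capillary wall, depend on platelet-derived growth factor signals from the endothelium and help to keep the barrier closed. Smooth muscle cells wrap arterioles and set blood flow. In bulk tissue, fewer cells of a type and less RNA per cell cannot be told apart.

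The libraries held between 14221519 and 16696463 counts. Cell-treated library 3 stood apart, with a mean Pearson correlation of 0.936 with the other libraries across genes, which are not independent replicates, against 0.963 to 0.969 for the rest. The mitochondrial share of counts was 1.95% for control library 3 and 4.49% to 8.78% for the rest. Of the markers that check the label of cortex, Slc17a7, the vesicular glutamate transporter of its excitatory neurons, lay between 844 and 1409 CPM. The label "neural cell" does not describe sorted cells, since markers of vessels, glia and blood were present throughout. CPM are counts scaled to library size with TMM factors, which correct for differences in library composition, and they compare libraries for 1 gene. FPKM also divide by gene length and compare genes.

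No vascular gene passed the test. With edgeR's quasi-likelihood test and Benjamini-Hochberg adjustment over all genes tested, 0 of 33 members had an adjusted p under 0.05, against 0% of all 17042 genes, and the smallest adjusted p among the members was 0.999. Before adjustment 0 members had a p under 0.05, against 2.0% of all genes. DESeq2 called 9 genes and edgeR without a low-count filter called 1, and none of these was a member. The groups did not overlap for 2 members: Kdr was higher in all 3 cell-treated libraries, against 4.30% of all genes with treated values higher, and Notch3 was lower, against 4.30% with treated values lower. With 3 libraries a group, an exact two-sided permutation test of 1 gene cannot give a p below 0.1. In cell-treated libraries 15 endothelial genes had higher and 8 had lower values (median log2 fold change 0.14). Of the pericyte genes 3 were higher and 5 lower, at a median of -0.16, and both tested smooth muscle genes were lower at a median of -0.84. The median over all genes tested was 0.0013.

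The direction of the endothelial genes turned on single libraries. Without cell-treated library 3, 10 of 23 had higher and 13 lower values (median log2 fold change -0.034). Without control library 3 there were 7 higher and 16 lower (median -0.037), and without both there were 5 higher and 18 lower (median -0.15). Without control library 2 there were 21 higher and 2 lower (median 0.27). The pericyte median moved above 0 when either cell-treated library 3 (0.014) or control library 2 (0.033) was dropped. For Acta2 and Myh11 it was 0.052 without control library 2. Medians above and below 0 thus both occurred for all 3 cell classes within the 6 libraries.

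**Figure D1:**
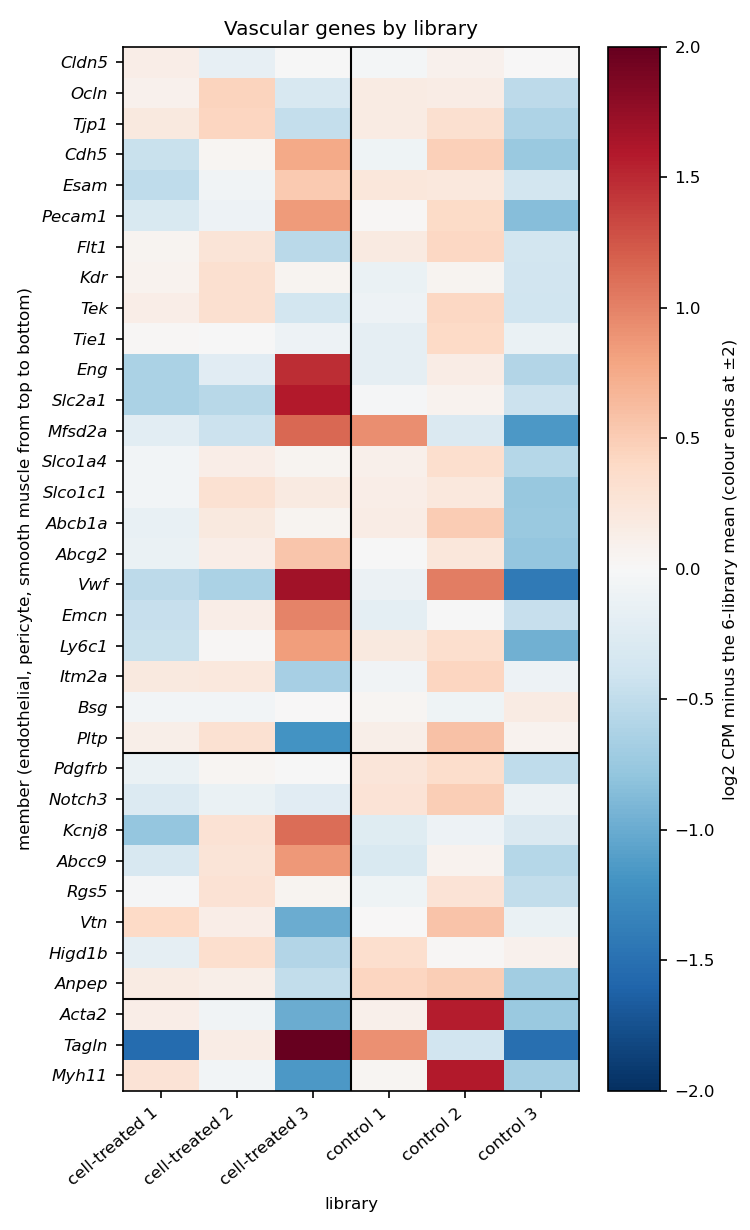
Each row is a vascular gene and each column a library, with the cell-treated libraries on the left; colour gives log2 CPM centred on each gene's 6-library mean, with black lines between the cell classes and between the groups. Cell-treated library 3 is highest for 10 and control library 3 lowest for 14 of 23 endothelial genes, and control library 2 is highest for Acta2 and Myh11. Tagln, with 1 to 15 counts, was not tested.

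Set per gene length, the members spanned a wide range of levels. Bsg, which encodes basigin, a chaperone of lactate transporters found on barrier endothelium and on many other cells, had the highest FPKM, at a mean of 233 over the 6 libraries (219 to 258). Cldn5, the claudin that seals brain endothelial junctions, followed at 43.7 FPKM (38.9 to 47.6), Slc2a1 at 40.01 (21.7 to 103), and the pericyte genes Vtn and Rgs5 at 34.8 (16.9 to 49.2) and 30.4 (21.2 to 36.5). The range of Slc2a1 overlaps those of the other three, and Vtn overlaps both Cldn5 and Rgs5, so neighbours in this order did not differ beyond their spread over libraries; the ranges of Cldn5 and Rgs5 did not overlap. At the low end stood Emcn at 1.64 FPKM, Abcc9 at 1.61, Anpep at 1.17 and Tagln at 0.147. Acta2 averaged 18.6 FPKM (7.90 to 45.9) and Myh11 4.07 (1.53 to 10.1).

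**Figure D2:**
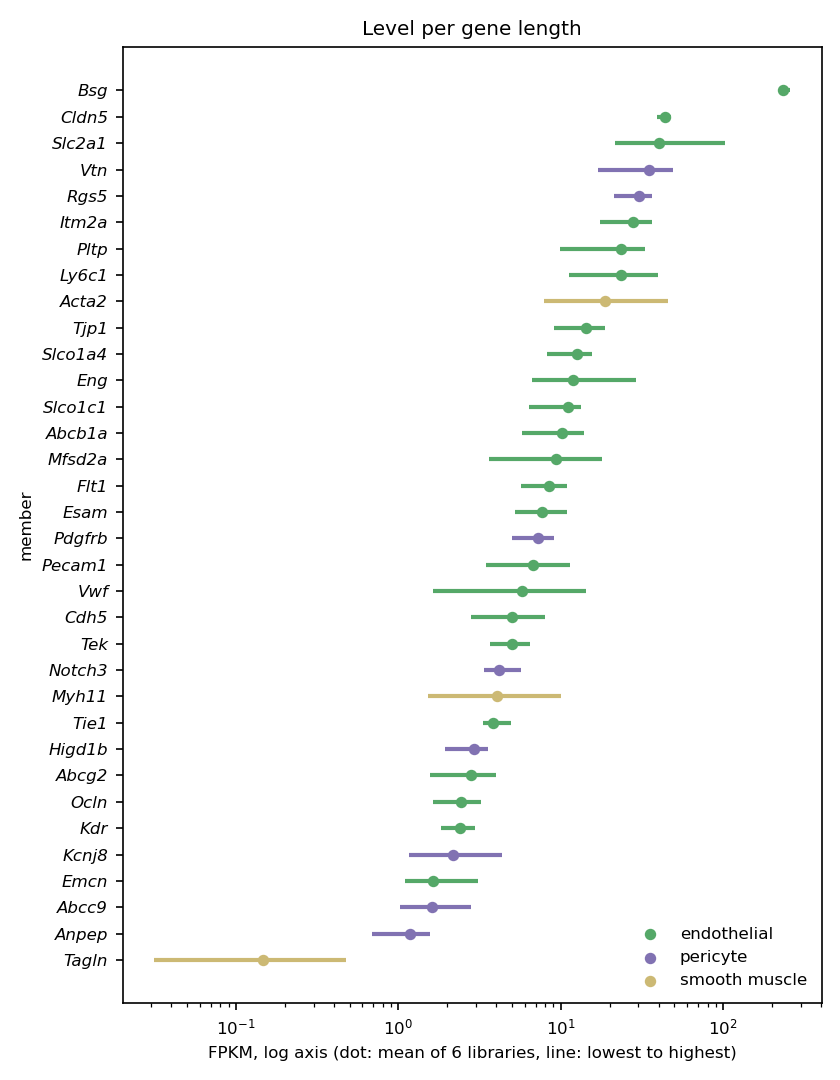
Level of each member in FPKM on a log axis, with a dot at the mean of the 6 libraries and a line from the lowest to the highest library, coloured by cell class. Bsg lies above all other members, Tagln below them, and Slc2a1, Vwf and Acta2 have long lines while Cldn5 and Bsg have short ones.

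Promoter sequences are shown for 3 members with unlike behaviour: Cldn5, which was steady over the libraries, Slc2a1, which led in 1 library, and Acta2, which shared its library order with Myh11. They are RefSeq windows on build GRCm38.p6 from 250 bases before to 50 after the annotated start, and such a window was found for 25 of the 34 members (29 windows in all). Capitals mark the GC box GGGCGG, bound by Sp-family factors, on either strand in Cldn5 and Slc2a1, and a CArG-like element in Acta2. The CArG box is the element bound by serum response factor in smooth muscle genes: CC, then 6 letters that are each A or T, then GG. In the CArG-like form, 1 of these 6 may be C or G.
Cldn5 (chr16:18776597-18776896, plus strand): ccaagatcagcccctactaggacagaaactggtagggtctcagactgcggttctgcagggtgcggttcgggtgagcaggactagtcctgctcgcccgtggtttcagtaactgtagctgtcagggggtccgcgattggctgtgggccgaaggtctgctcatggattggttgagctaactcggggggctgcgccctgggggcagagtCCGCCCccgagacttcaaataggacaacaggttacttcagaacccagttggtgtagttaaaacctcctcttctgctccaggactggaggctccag
Slc2a1 (chr4:119108495-119108794, plus strand): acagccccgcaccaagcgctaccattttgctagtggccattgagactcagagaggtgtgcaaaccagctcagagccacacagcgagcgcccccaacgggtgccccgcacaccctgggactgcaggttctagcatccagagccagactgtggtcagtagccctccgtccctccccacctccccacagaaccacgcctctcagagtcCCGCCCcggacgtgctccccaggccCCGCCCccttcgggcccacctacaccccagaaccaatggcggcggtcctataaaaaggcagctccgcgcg
Acta2 (chr19:34255324-34255623, minus strand): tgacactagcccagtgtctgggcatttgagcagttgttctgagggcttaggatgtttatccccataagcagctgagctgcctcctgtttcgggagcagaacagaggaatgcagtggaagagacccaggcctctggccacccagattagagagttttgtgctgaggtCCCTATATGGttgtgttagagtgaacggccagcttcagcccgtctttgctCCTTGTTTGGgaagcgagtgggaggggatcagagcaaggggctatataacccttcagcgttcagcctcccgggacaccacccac

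Counted with the start base as position 0, the GC box lay at -45 to -40 in both Cldn5 and Slc2a1, and a further one at -20 to -15 in Slc2a1. Of the 29 windows, 14 held a GC box, and 35.7% of all 32851 windows in the RefSeq table did. The Acta2 window held CCCTATATGG at -84 to -75 and CCTTGTTTGG at -34 to -25. A CArG-like element was found in 6 of the 29 windows, against 9.98% of all windows, and the strict CArG box in 0 of 29, against 1.63%. The CArG-like form was in 5 of 22 endothelial windows, 0 of 6 pericyte windows and that of Acta2. Acta2 was the only smooth muscle member with a window. Abcg2, Ocln and Ly6c1 had several windows, which overlap for Ocln and Ly6c1, so the 29 windows are not independent. The Abcb1a window begins at 8566841 on chromosome 5, upstream of the deposited gene start at 8660077. These are letter matches in a short window and say nothing about binding.

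Of the 6 endothelial junction genes, 4 were higher and 2 lower after cell treatment, and none passed. Cldn5 lay at 67.6, 55.2 and 61.4 CPM in cell-treated libraries 1, 2 and 3, against 60.2, 65.8 and 62.3 CPM in control libraries 1, 2 and 3. The groups overlapped fully, and the log2 fold change was -0.032 ± 0.154 (SE). Pecam1, an adhesion molecule of endothelial contacts, had 31.7, 36.5 and 70.2 CPM in cell-treated and 39.5, 51.0 and 21.6 CPM in control libraries. Cell-treated library 3 was the highest and control library 3 the lowest, and the log2 fold change was 0.31 ± 0.389 (SE; -0.13 without cell-treated library 3). Cdh5, the cadherin of endothelial adherens junctions, had its highest and lowest values in the same libraries, at 33.4 and 11.9 CPM. Esam, a junctional adhesion molecule, had 14.99, 20.3 and 30.8 CPM in cell-treated and 24.9, 24.8 and 16.5 CPM in control libraries, so the groups overlapped and their means were alike at 22.04 ± 8.03 and 22.06 ± 4.82 CPM (SD, n = 3 each).

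Tjp1 and Ocln, tight-junction genes that other cell types also express, had another order. The part of other cell types in that order was not tested. Tjp1, a scaffold under the junction, had 124, 147 and 77.7 CPM in cell-treated and 121, 135 and 71.0 CPM in control libraries. Its lowest values were in both libraries numbered 3, and the log2 fold change was 0.092 ± 0.308 (SE). Ocln, the junction protein occludin, had 10.7, 13.6 and 8.09 CPM in cell-treated and 11.3, 11.1 and 6.97 CPM in control libraries. These 2 genes were thus low in the cell-treated library in which Pecam1 and Cdh5 were highest. Of 12 other junction proteins, 6 were higher and 6 lower (median log2 fold change 0.013), and none passed. F11r, which encodes junctional adhesion molecule A, had the smallest p of them, at a log2 fold change of 0.31 ± 0.281 (SE).

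Of the 5 endothelial receptors, 3 had higher and 2 lower values. Kdr (chromosome 5, 75932827 to 75978458), the main signalling receptor for VEGF, had 22.7, 27 and 22.45 CPM in cell-treated and 19.6, 22.44 and 16.6 CPM in control libraries. The lowest cell-treated value was 22.45 and the highest control value 22.44 CPM, so the groups were separated by less than the spread within either. The log2 fold change was 0.30 ± 0.195 (SE), with an unadjusted p of 0.166 and an adjusted p of 0.999 by edgeR, and it was between 0.19 and 0.41 with single libraries left out. Flt1, a VEGF receptor that binds the ligand strongly and signals weakly, had 115, 132 and 76.1 CPM in cell-treated and 126, 148 and 86.4 CPM in control libraries, with the lowest value in cell-treated library 3. Tek, the receptor for angiopoietins, had 25.2, 28.6 and 17.8 CPM in cell-treated and 21.5, 30.4 and 17.4 CPM in control libraries, with overlapping groups and the low values in both libraries numbered 3. Its log2 fold change was 0.047 ± 0.272 (SE), and that of its partner Tie1 was -0.081 ± 0.216 (SE).

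Eng (chromosome 2, 32646595 to 32682669), a coreceptor for ligands of the TGF-beta family, differed most between libraries among the receptors. It had 27.1, 35.9 and 116 CPM in cell-treated and 36.8, 46.3 and 27.7 CPM in control libraries. Cell-treated library 3 was 2.503-fold above the next library and 3.34 times the mean of the other 5, while cell-treated libraries 1 and 2 lay within or below the control range. The log2 fold change was 0.69 ± 0.518 (SE), and without cell-treated library 3 it was -0.23.

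Of the 6 transporters, 5 had higher values and 1, Abcb1a, lower values. Slc2a1 (chromosome 4, 119108711 to 119137983), the glucose transporter of the barrier, had 76.1, 80.4 and 356 CPM in cell-treated and 116, 124 and 87.8 CPM in control libraries. Cell-treated library 3 was 2.86-fold above the next library, and the other cell-treated libraries lay below every control. The log2 fold change was 0.64 ± 0.571 (SE), and without cell-treated library 3 it was -0.48 with an unadjusted p of 0.0316 and an adjusted p of 0.914 by edgeR. In that fit 4.54% of all genes had an unadjusted p under 0.05. In cell-treated library 3, 2 of 33 members, Eng and Slc2a1, exceeded every other library by 2-fold or more, as did 2.43% of all genes tested.

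Mfsd2a, which carries lysophospholipids with omega-3 fatty acids into the brain, had 15.6, 13.4 and 39.99 CPM in cell-treated and 34.2, 14.8 and 8.18 CPM in control libraries. High values thus occurred once in each group, and the log2 fold change was 0.27 ± 0.582 (SE). Abcg2, an efflux pump, had 20.2, 24.2 and 32.3 CPM in cell-treated and 21.95, 25.7 and 12.8 CPM in control libraries, a log2 fold change of 0.34 ± 0.299 (SE). Abcb1a, the P-glycoprotein pump, had 48.3, 61.3 and 55.7 CPM in cell-treated and 59.4, 76.0 and 31.96 CPM in control libraries, with all cell-treated values inside the control range. Its exons share 10.1% of their bases with exons of a gene on the opposite strand, Gm42686. Slco1a4, an organic anion transporter, and Slco1c1, which carries thyroid hormone, had log2 fold changes of 0.047 ± 0.238 and 0.23 ± 0.264 (SE). All of these but Slc2a1 had their lowest value in control library 3.

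Of 11 other barrier transporters and carriers, 4 were higher and 7 lower (median log2 fold change -0.037), and none passed. Lrp8, a lipoprotein receptor, and Tfrc, the transferrin receptor, had the smallest p of them, at 0.28 ± 0.219 and 0.25 ± 0.224 (log2 fold change, SE). Slc38a3, a glutamine transporter, had 106, 105 and 18.3 CPM in cell-treated and 127, 109 and 67.4 CPM in control libraries. Astrocyte markers were also low in cell-treated library 3, and their part in this Slc38a3 value was not tested.

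Surface and secreted endothelial genes had 3 higher and 3 lower values. Vwf (chromosome 6, 125546774 to 125686679), the clotting protein stored by larger-vessel endothelium, had 48.9, 45.4 and 226 CPM in cell-treated and 65.0, 143 and 26.5 CPM in control libraries. Cell-treated library 3 and control library 2 were the high ones, and the log2 fold change of 0.45 ± 0.753 (SE) became -0.73 when cell-treated library 3 was dropped and 1.23 when control library 2 was. Emcn, a sialomucin of capillaries and veins, had 6.02, 9.12 and 16.5 CPM in cell-treated and 7.25, 8.27 and 6.01 CPM in control libraries, a log2 fold change of 0.55 ± 0.384 (SE; 0.075 without cell-treated library 3). Ly6c1, a surface antigen of brain endothelium, had 27.04, 37.2 and 65.6 CPM in cell-treated and 41.98, 46.5 and 18.9 CPM in control libraries.

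Itm2a and Pltp went the other way in cell-treated library 3. Pltp, the phospholipid transfer protein, had 61.4, 70.7 and 24.9 CPM in cell-treated and 61.7, 85.0 and 59.9 CPM in control libraries, and Itm2a, a membrane protein of brain endothelium, 54.4, 55.5 and 30.2 CPM in cell-treated and 45.4, 63.9 and 44.6 CPM in control libraries. Without that library the log2 fold change of Pltp was -0.062 instead of -0.40 and that of Itm2a 0.098 instead of -0.14. Exons of Ctsa on the opposite strand cover 19.3% of the exon bases of Pltp. Bsg varied least, with 410, 407 and 424 CPM in cell-treated and 433, 399 and 472 CPM in control libraries.

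**Figure D3:**
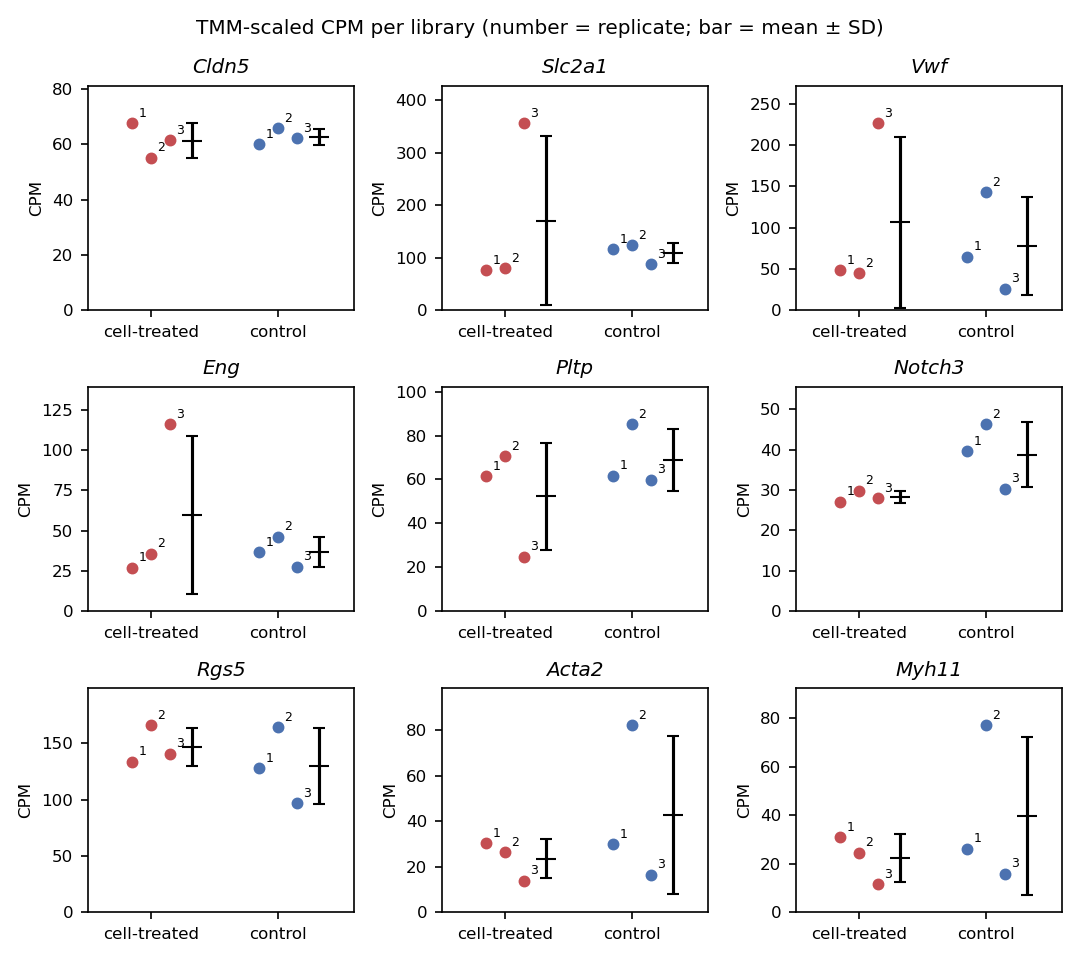
TMM-scaled CPM of 9 members, cell-treated libraries on the left and control libraries on the right of each panel; the number beside a point is its replicate, and the black bar is the group mean ± SD (n = 3). Slc2a1, Vwf and Eng reach 356, 226 and 116 CPM in cell-treated library 3, Pltp is at 24.9 CPM there, and Acta2 and Myh11 reach 82.1 and 77.0 CPM in control library 2.

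Cell-treated library 3 was the highest of the 6 for 10 of 23 endothelial genes, whereas it was highest for 28.7% of all genes tested. It was the lowest for 3 of 23, against 5556 of 17042 genes tested. Control library 3 was the lowest for 14 of 23, against 16.7% of all genes tested. Ratios of FPKM within a library do not depend on library scaling. The ratio of Slc2a1 to Cldn5 was 0.455, 0.588 and 2.34 in cell-treated and 0.779, 0.763 and 0.570 in control libraries. The ratio of Vwf to Cldn5 was 0.0638, 0.0725 and 0.325 in cell-treated and 0.0951, 0.192 and 0.0375 in control libraries. In cell-treated library 3, Cldn5 was at 0.987 times and Slc2a1 at 3.67 times the mean of the other 5 libraries. These genes were chosen after their values were seen, and the ratios are a description.

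Among the other vascular genes, cell-treated library 3 was highest for 3 and lowest for 5 of 14 ligands, and highest for 5 and lowest for 3 of 9 further receptors. Over all genes tested it was highest for 28.7% and lowest for 5556 of 17042. It was at least 2-fold above the next library for 2 genes of each list, against the 2.43% of all genes given above. Angpt2, an angiopoietin released by endothelium, had 2.20, 1.62 and 29.6 CPM in cell-treated and 5.32, 2.52 and 1.28 CPM in control libraries, a log2 fold change of 1.88 ± 1.09 (SE) that was -0.66 without that library. Notch4, an endothelial Notch receptor, had 9.91, 8.85 and 41.7 CPM in cell-treated and 12.8, 14.7 and 10.6 CPM in control libraries. Ptprb, the endothelial phosphatase that acts on Tek, had 73.4, 82.4 and 205 CPM in cell-treated and 81.1, 127 and 45.1 CPM in control libraries. Robo4 had 10.2, 11.8 and 30.7 CPM in cell-treated and 11.9, 12.7 and 7.67 CPM in control libraries. These 4, which are among the genes of smallest p in their lists, had their highest value in cell-treated library 3, unlike the 5 ligands and 3 receptors that were lowest there.

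By list, none of the other vascular genes passed. Of 14 vascular ligands, 5 had higher and 9 lower values (median log2 fold change -0.13), among them Jag2, a Notch ligand, whose groups did not overlap, at 59.5, 61.1 and 56.3 CPM in cell-treated and 63.2, 69.1 and 76.7 CPM in control libraries. Of 9 other receptors tested, 4 were higher and 5 lower (median -0.0041). Of 16 genes of Wnt signalling and barrier induction, 6 were higher and 10 lower (median -0.052), with Reck and Tspan12, coreceptors of that pathway, at -0.40 ± 0.308 and -0.35 ± 0.277 (log2 fold change, SE). Of 8 basement membrane genes, 4 were higher and 4 lower (median 0.048), with Agrn lower in every cell-treated library at 241, 238 and 149 CPM, against 246, 265 and 275 CPM in control libraries. Groups that did not overlap, with treated values lower, thus occurred for 1 of 14 ligands and 1 of 8 basement membrane genes, against 4.30% of all genes.

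Arterial, venous and inflamed endothelium also gave no call. Of 5 arterial genes, 2 had higher and 3 lower values (median log2 fold change -0.13). The groups of Hey1, a Notch target, did not overlap, at 49.2, 45.4 and 30.8 CPM in cell-treated and 54.5, 49.4 and 74.3 CPM in control libraries. Such groups, with treated values lower, were found for 4.30% of all genes. Of 5 venous genes, 3 had higher and 2 lower values (median 0.10), and without cell-treated library 3 there were 0 higher and 5 lower (median -0.48). Of 4 leukocyte adhesion genes tested, 2 were higher and 2 lower (median 0.026). Vcam1, the adhesion molecule of inflamed endothelium, had 32.1, 34.7 and 30.2 CPM in cell-treated and 49.5, 47.8 and 21.9 CPM in control libraries. Sele and Selp did not pass the filter on low counts.

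**Figure D4:**
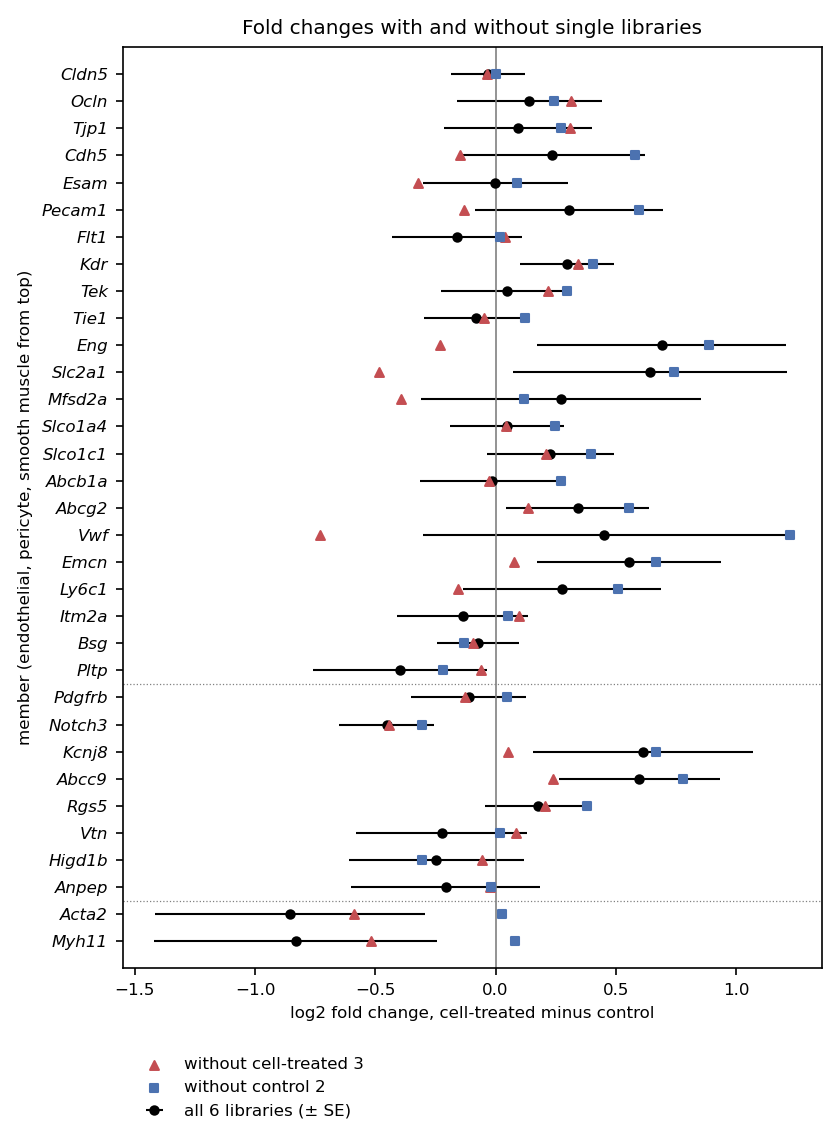
Log2 fold change of the 33 tested members, cell-treated minus control: black dots with SE bars use all 6 libraries, red triangles leave out cell-treated library 3 and blue squares leave out control library 2. Triangles of Eng, Slc2a1, Mfsd2a and Vwf lie below 0 while their dots lie above it, and the squares of Acta2 and Myh11 lie close to 0.

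Of the 2 pericyte receptors, Notch3 had groups that did not overlap and Pdgfrb had groups that did, and neither passed. Notch3 (chromosome 17, 32120820 to 32166880), the Notch receptor of mural cells, had 27.1, 29.9 and 27.9 CPM in cell-treated and 39.6, 46.2 and 30.4 CPM in control libraries. Every cell-treated value lay below every control value, with a gap between 29.9 and 30.4 CPM. Its log2 fold change of -0.45 ± 0.197 (SE) had the smallest unadjusted p of the members, 0.0511, and an adjusted p of 0.999 by edgeR. Dropping 1 library at a time gave values between -0.60, for control library 3, and -0.31, for control library 2. Exons of Gm17276 on the opposite strand share 6.03% of its exon bases. Pdgfrb, the receptor through which endothelium recruits pericytes, had 35.8, 40.1 and 39.1 CPM in cell-treated and 46.5, 50.1 and 27.7 CPM in control libraries, and the cell-treated values lay inside the control range. Its log2 fold change was -0.11 ± 0.238 (SE) and was 0.047 with control library 2 left out.

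Kcnj8 (chromosome 6, 142564837 to 142571614) and Abcc9 (chromosome 6, 142587862 to 142702315) lie next to each other and encode the pore and the regulatory subunit of the ATP-sensitive potassium channel of pericytes. Kcnj8 had 2.95, 6.15 and 11.01 CPM in cell-treated and 4.28, 4.70 and 4.15 CPM in control libraries. Abcc9 had 10.2, 15.2 and 23.3 CPM in cell-treated and 10.3, 13.3 and 8.63 CPM in control libraries. Both were lowest of the cell-treated libraries in library 1 and highest in library 3. Their log2 fold changes were 0.61 ± 0.458 and 0.60 ± 0.335 (SE), or 0.051 and 0.24 without cell-treated library 3.

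The pericyte genes of highest level per length, Rgs5 and Vtn, had different patterns. Rgs5, a regulator of G-protein signalling, had 134, 166 and 141 CPM in cell-treated and 128, 164 and 97.3 CPM in control libraries, a log2 fold change of 0.18 ± 0.222 (SE). Vtn, which encodes the matrix protein vitronectin, had 88.4, 73.8 and 33.9 CPM in cell-treated and 67.5, 100.3 and 61.5 CPM in control libraries, and its lowest value was in cell-treated library 3. Anpep, an aminopeptidase of pericytes, had 5.21, 5.07 and 3.30 CPM in cell-treated and 6.28, 6.52 and 2.88 CPM in control libraries. Higd1b, a mitochondrial protein gene of pericytes, had 26 to 45 counts in cell-treated and 35 to 44 in control libraries, the lowest counts among the tested members.

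Of 7 other pericyte genes tested, 2 were higher and 5 lower (median log2 fold change -0.15), and none passed. Cspg4, the NG2 proteoglycan, which oligodendrocyte precursors also express, had a log2 fold change of -0.29 ± 0.214 (SE). Art3 was the one with groups that did not overlap, at 5.08, 5.40 and 4.79 CPM in cell-treated and 4.35, 3.51 and 2.37 CPM in control libraries. Such groups, with treated values higher, were found for 4.30% of all genes.

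The smooth muscle genes had the lowest fold changes of the members, set by control library 2. Acta2 (chromosome 19, 34241090 to 34255336), smooth muscle actin, had 30.55, 26.5 and 13.9 CPM in cell-treated and 29.9, 82.1 and 16.6 CPM in control libraries. Myh11 (chromosome 16, 14194535 to 14291372), smooth muscle myosin heavy chain, had 30.9, 24.6 and 11.5 CPM in cell-treated and 26.3, 77.0 and 16.0 CPM in control libraries. Both genes put the libraries in the same order, with control library 2 highest, then cell-treated library 1, control library 1, cell-treated library 2, control library 3 and cell-treated library 3. Control library 2 was 2.69-fold above the next library for Acta2 and 2.49-fold for Myh11. Their log2 fold changes of -0.86 ± 0.562 and -0.83 ± 0.588 (SE) became 0.026 and 0.079 once control library 2 was left out.

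The difference of control library 2 was larger for smooth muscle than for pericytes. The FPKM ratio of Acta2 to Rgs5 was 0.583, 0.407 and 0.252 in cell-treated and 0.597, 1.27 and 0.434 in control libraries, and that of Myh11 to Rgs5 was 0.138, 0.0887 and 0.0489 in cell-treated and 0.123, 0.280 and 0.0983 in control libraries. A further smooth muscle list held contractile genes and regulators of them, Srf among the latter. Of its 11 genes tested, 3 had higher and 8 lower values (median log2 fold change -0.34). Control library 2 was the highest for 8 of 11, against 2458 of 17042 genes tested. Without control library 2, 5 were higher (median -0.068). Myl9, a myosin light chain of smooth muscle, had 18.4, 17.97 and 7.71 CPM in cell-treated and 17.5, 39.4 and 13.3 CPM in control libraries. Srf, the factor that binds CArG boxes, had 35.6, 39.99 and 33.4 CPM in cell-treated and 38.4, 47.3 and 44.2 CPM in control libraries.

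Tagln (chromosome 9, 45929619 to 45936058), an actin-binding protein of smooth muscle, could not be read beside Acta2. It had 1, 3 and 15 counts in cell-treated and 5, 2 and 1 in control libraries. Exons of Pcsk7 and Gm48529 on the opposite strand cover 67.9% of its exon bases, and a kit that marks strand is not named, so its reads and theirs cannot be told apart; the part of this overlap in the low count was not tested.

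Genes of other cell types moved with some of these values. Fibroblast markers of meninges and large vessels had their highest value in control library 2 for 6 of 9 genes, against 2458 of 17042 genes tested. They had their lowest in control library 3 for 6 of 9, against 16.7% of all genes. Their summed level ranged from 110 to 175 CPM in cell-treated and from 95.1 to 227 CPM in control libraries, and of the 9, Igf2 was at 0 counts in control library 3 while the others had counts in every library. Their part in the smooth muscle and Vwf values of control library 2 was not tested. Blood genes were higher in all 3 cell-treated libraries for 5 of 5 genes, against 4.30% of all genes, at a summed 105 to 275 CPM against 6.78 to 49.4 CPM in control libraries. All 5 had an unadjusted p under 0.05 by edgeR, against 2.0% of all genes, and none passed after adjustment. They are hemoglobin chains and a further red-cell gene, which can all follow blood content, so they are not 5 independent results. The summed endothelial genes ranged from 1370 to 1949 CPM in cell-treated and from 1210 to 1739 CPM in control libraries and overlapped. The 4 astrocyte markers summed to 925 CPM in cell-treated library 3, and their range was 925 to 5225 CPM in cell-treated and 3016 to 5463 CPM in control libraries. The 4 oligodendrocyte markers were lowest in that library for 4 of 4 genes, against 5556 of 17042 genes tested. Their summed range was 2256 to 6205 CPM in cell-treated and 4033 to 6696 CPM in control libraries. The 4 microglia markers were not low there as a sum, at 518 CPM in cell-treated library 3. Their summed range was 340 to 518 CPM in cell-treated and 334 to 493 CPM in control libraries. The part of the low astrocyte and oligodendrocyte levels in the low Pltp, Itm2a and Vtn values of cell-treated library 3 was not tested. The 6 cortical neuron markers were lowest in control library 2 for 3 genes, against 2584 of 17042 genes tested, and summed to 2886 CPM there. Their range was 4269 to 5163 CPM in cell-treated and 2886 to 4305 CPM in control libraries. The part of these neuron markers in the smooth muscle values was not tested either.

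**Figure D5:**
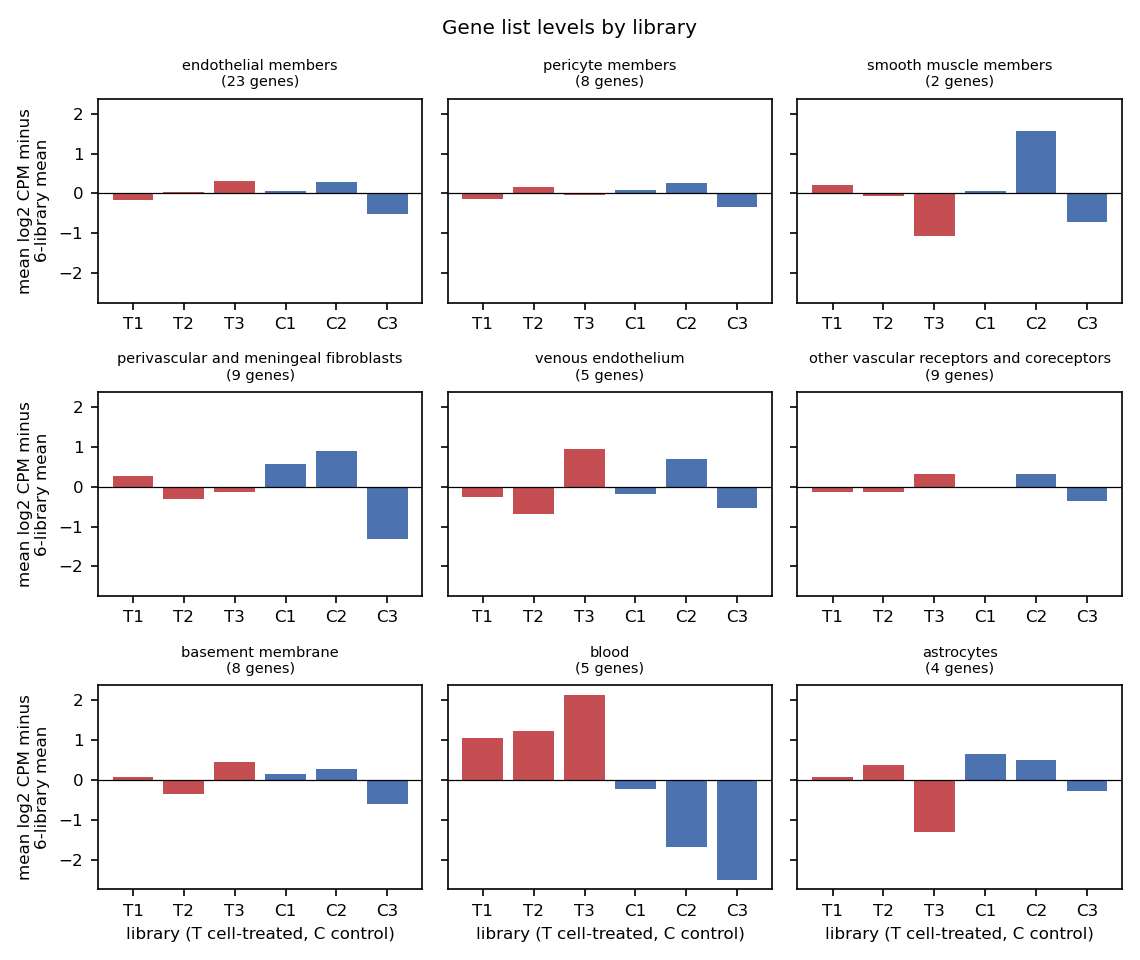
Bars give, for each library (T, cell-treated, left; C, control), log2(CPM + 0.1), centred on each gene's 6-library mean and averaged over a list's tested genes. Smooth muscle genes reach 1.57 in control library 2 and fibroblast genes 0.91 there, blood genes are above 0 in all 3 cell-treated libraries, and endothelial genes stay between -0.52 and 0.31.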

How the data were processed

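Polyadenylated RNA of 6 cortex libraries was sequenced after random priming, per the labels' protocols. The deposited count table holds raw reads per gene, and HISAT2 2.0.5, DESeq2 and featureCounts are listed, with no role, in the submitters' processing notes. No source used here names the genome build. Of 54409 identifiers shared with GENCODE M21 (GRCm38), 98.3% had the same start and end. The authors' FPKM table served for levels per length and 2 alternatives. A table of group means was not used.

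The test on counts was that of edgeR 4.0.16 under R 4.3.3: filterByExpr (minimum count 10, total 15), TMM factors, robust quasi-likelihood F test, cell-treated over control, Benjamini-Hochberg adjustment over all genes, threshold 0.05. Standard errors come from the F statistic. All libraries carry 1 batch label. The p-values set each difference against the spread among 3 biological replicates a group, as the design text calls them. For each gene this spread was estimated with information from all genes tested. The members and lists were chosen with earlier results of these data known. All members are named, and at most 3 genes of smallest p from each further list. Beyond that rule, per-library values of Cldn5, Cdh5, Ocln, Tjp1, Flt1, Mfsd2a, Vwf, Ly6c1, Itm2a and Pltp, the label-check gene Slc17a7, and the motifs other than the strict CArG box were chosen after values were seen. Alternatives were DESeq2 1.42.0, limma 3.58.1 (voom, log2(FPKM + 1), log2(FPKM + 0.1)), other factors and filters, the replicate number as a block, and libraries left out. On simulated data, the test called 93% of 100 genes changed 4-fold, 22% of 50 changed 2-fold and 0% of 50 changed 1.5-fold among 16656 genes, with 5 false calls. The changed genes were drawn from those above 5 CPM. Simulated counts took the average spread of genes at each level and had no library that stood apart. The shares called thus do not apply to genes that varied as Eng, Slc2a1, Vwf, Acta2 and Myh11 did. Figures were drawn with matplotlib 3.10.9.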

Additional observations from a re-analysis of the deposited data

How the results depend on the processing

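Over all genes, edgeR called 0 genes; DESeq2 called 9, edgeR without a low-count filter 1, and every other alternative run called 0. The count at an unadjusted p under 0.05 by edgeR was 340, against 1531 without control library 3 and cell-treated library 3. Without these 2 libraries 6 of 33 members had such a p, against 1504 of 16939 genes that were also in the main test. Slc2a1, Notch3, Vwf, Esam, Ly6c1 and Pdgfrb were these members, all with lower values in cell-treated libraries. No member was called under any alternative, where the smallest adjusted p was 0.557. The medians of the 3 classes moved by less than 1 SD of their level between replicates under the alternatives. That SD came from the same 6 libraries, including those left out, so this check could hardly fail and does not show stable medians. For smooth muscle the SD was 0.947, and the median went from -0.84 to 0.052 without control library 2. The signs of the medians turned when single libraries were left out. Same-numbered libraries had correlations of -0.277, 0.0815 and 0.0728 between their deviations from the group means, against -0.198 to 0.174 for libraries of unlike number. With 3 libraries a group, these correlations cannot settle whether the numbers pair the libraries. With the replicate number as a block, 0 genes were called, 319 had an unadjusted p under 0.05 by edgeR and the log2 fold change of Abcb1a was 0.059. Of 528 member values under 16 alternatives, 470 kept their direction and 58 did not. Abcb1a (-0.017) was at 0.0011 by DESeq2, 0.067 by voom, 0.064 on log2(FPKM + 1) and 0.077 on log2(FPKM + 0.1), and Esam (-0.00067) at 0.020 by DESeq2 and 0.013 with RLE factors. Without control library 3 and cell-treated library 3, signs turned for Cdh5 (-0.40), Pecam1 (-0.41), Eng (-0.40), Slc2a1 (-0.62), Mfsd2a (-0.75), Slco1a4 (-0.18), Slco1c1 (-0.040), Abcg2 (-0.10), Vwf (-1.14), Emcn (-0.037), Ly6c1 (-0.46) and Itm2a (0.0073). With 1 library left out, log2 fold changes that took both signs ranged from -0.11 to 0.038 for Cldn5, -0.066 to 0.31 for Ocln, -0.14 to 0.31 for Tjp1, -0.15 to 0.58 for Cdh5, -0.32 to 0.21 for Esam, -0.13 to 0.60 for Pecam1, -0.35 to 0.038 for Flt1, -0.12 to 0.30 for Tek, -0.19 to 0.12 for Tie1, -0.23 to 1.04 for Eng, -0.48 to 0.99 for Slc2a1, -0.39 to 1.004 for Mfsd2a, -0.17 to 0.25 for Slco1a4, -0.020 to 0.40 for Slco1c1, -0.30 to 0.27 for Abcb1a, -0.73 to 1.23 for Vwf, -0.16 to 0.52 for Ly6c1, -0.28 to 0.098 for Itm2a, -0.33 to 0.047 for Pdgfrb, -0.51 to 0.086 for Vtn, -1.24 to 0.026 for Acta2 and -1.21 to 0.079 for Myh11. The cause was not tested. Depth limits Higd1b and Tagln most.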
